A study of Homo sapiens with 8 samples.

Results

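The genes examined here encode subunits of the Polycomb repressive complexes. The list held 9 genes, *EZH2*, *EED*, *SUZ12*, *CBX2*, *CBX8*, *BMI1*, *RING1*, *RNF2* and *PHC1*, and every array probe of these genes was read through the transcript accession it carries. Of the 9 genes, 8 had a named probe, with 14 probes in all, among 22439 named genes and 58201 probes. *EED* had no probe under a matched accession and was not analysed here. A gene with several probes is represented in counts by its brightest probe, the probe with the highest mean log2 signal over both channels and all arrays.

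Expression was measured on 8 Agilent arrays, each hybridized with Cy5-labeled RNA of treated cells and Cy3-labeled RNA of control cells of the same line. In the *miR-150-3p* group, 1 array held EBC-1 cells and 1 held SK-MES-1 cells, both lung squamous cell carcinoma (LUSQ) cell lines, transfected with *miR-150-3p*. In the siDONSON group, the small cell line SBC-3 was transfected with siDONSON-1, siDONSON-2 or siDONSON-3, with 1 array per siRNA. In the LOXL2-edited group, 3 arrays (A549-GE1, A549-GE2 and A549-GE3) held A549 lung adenocarcinoma cells with *LOXL2* knocked down by CRISPR/Cas9 editing. The control of the transfected cells is labelled both mock and without transfection, and that of the edited cells is unedited A549. The labels do not say whether the edited samples are clones or separate cultures. The *miR-150-3p* arrays differ in cell line and the siDONSON arrays in siRNA, so their spread holds these differences as well. For the LOXL2-edited arrays nothing says that the samples came from separate cultures, and their spread may be technical. The p-values measure only the spread between these arrays, pooled over the groups. All values below are log2 ratios of treated over control, unless another quantity is named.

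Polycomb proteins keep developmental and growth-restraining genes silent. In Polycomb repressive complex 2 (PRC2), EZH2 is the methyltransferase that trimethylates histone H3, and it needs EED and SUZ12 for its activity. In Polycomb repressive complex 1 (PRC1), RING1 and RNF2 are the ubiquitin ligases of histone H2A, BMI1 activates them, CBX proteins bind the methylated histone, and PHC proteins polymerize the complex. *EZH2* is a target of the E2F factors, which drive S phase entry, and is abundant in dividing cells and in many lung cancers.

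Because *EZH2* is a known E2F target, the promoters of the Polycomb genes were searched for E2F-type motifs. The motifs were TTTCCCGC, TTTGGCGC, TTTCGCGC and TTTGCCGC on both strands, and no promoter of these genes held more than 1 match. RefSeq promoters (GRCh38.p14, 250 bases before to 50 bases after a start) were given for 7 of the 9 genes. For *CBX2* and *CBX8* none was given, so their promoters were not searched. The promoters given were 10 in all. Of these, 2 held a motif, against 3.31% of 35116 promoters. The sequences are shown in their own strand, 5′ to 3′, with the motif in capitals.
*EZH2*, chr7:148884242-148884541, minus strand: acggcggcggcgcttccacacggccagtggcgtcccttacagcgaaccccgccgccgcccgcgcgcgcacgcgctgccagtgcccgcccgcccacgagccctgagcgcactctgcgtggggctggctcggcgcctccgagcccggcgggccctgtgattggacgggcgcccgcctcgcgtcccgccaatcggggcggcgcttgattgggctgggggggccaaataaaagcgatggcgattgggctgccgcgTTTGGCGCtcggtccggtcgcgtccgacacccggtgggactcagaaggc
*SUZ12*, chr17:31936757-31937056, plus strand: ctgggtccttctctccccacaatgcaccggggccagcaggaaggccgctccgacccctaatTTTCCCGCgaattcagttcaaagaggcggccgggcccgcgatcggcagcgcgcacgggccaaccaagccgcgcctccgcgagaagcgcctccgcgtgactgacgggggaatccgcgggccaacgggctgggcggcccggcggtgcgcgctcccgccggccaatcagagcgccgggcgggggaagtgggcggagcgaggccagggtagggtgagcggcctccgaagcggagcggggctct
The *EZH2* motif begins 1 base past the start, and the *SUZ12* motif begins at position -189 relative to it. The *SUZ12* form is in 1.63% of all promoters and the *EZH2* form in 0.652%. The other *EZH2* promoter given held none of the motifs. A match describes these letters only.

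The targeted genes were low on the arrays labelled for them. *DONSON* was -2.15, -1.79 and -2.11 on the siDONSON arrays, and *LOXL2* was -2.49, -2.67 and -2.59 on the LOXL2-edited arrays. Between 41.1% and 46.4% of spots were well above background in green and between 48.5% and 56.2% in red, with 0 spots saturated. The control RNA of EBC-1 had 2 of 8 squamous markers well above background (*SOX2* and *CALML3*), without *TP63* and *KRT5*, and 3 of 8 adenocarcinoma markers. SK-MES-1 had 4 of 8 squamous markers, *TP63* among them, and 4 of 8 adenocarcinoma markers. The squamous label is thus only partly borne out by these markers. SBC-3 had 5 of 9 small cell markers, with 3 of 8 squamous markers (*TP63* among them) and 2 of 8 adenocarcinoma markers. A549 had 3 of 8 adenocarcinoma markers, without *NKX2-1*, with 3 of 9 small cell and 2 of 8 squamous markers. In bulk RNA, fewer cells of a type and less RNA per cell cannot be told apart.

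The Polycomb genes had ratios near 0 on most arrays, and the lowest values were those of *EZH2* and *CBX2* on the EBC-1 array and of *RNF2* on the siDONSON-3 array. In limma, 0 of 8 genes passed an adjusted p of 0.05 (a call) over both *miR-150-3p* arrays, where 3.72% of all named genes did, and 0 of 8 had an unadjusted p under 0.05, against 29.5% of all genes. In the siDONSON arrays, 0 of 8 passed, against 6.53% of all genes, and 2 had an unadjusted p under 0.05, against 26.2%. For the LOXL2-edited arrays, 0 of 8 passed, against 13.2%, and 0 had an unadjusted p under 0.05, against 30.0%. The difference of EBC-1 and SK-MES-1 was called for 0 of 8, against 0.792%, and 3 had an unadjusted p under 0.05, against 16.6%. The median of the 8 genes was -0.13, -0.052, 0.092 and -0.33 in these comparisons, beside medians of 0.035, 0.030, 0.026 and 0.00085 over all genes.

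**Figure D1:**
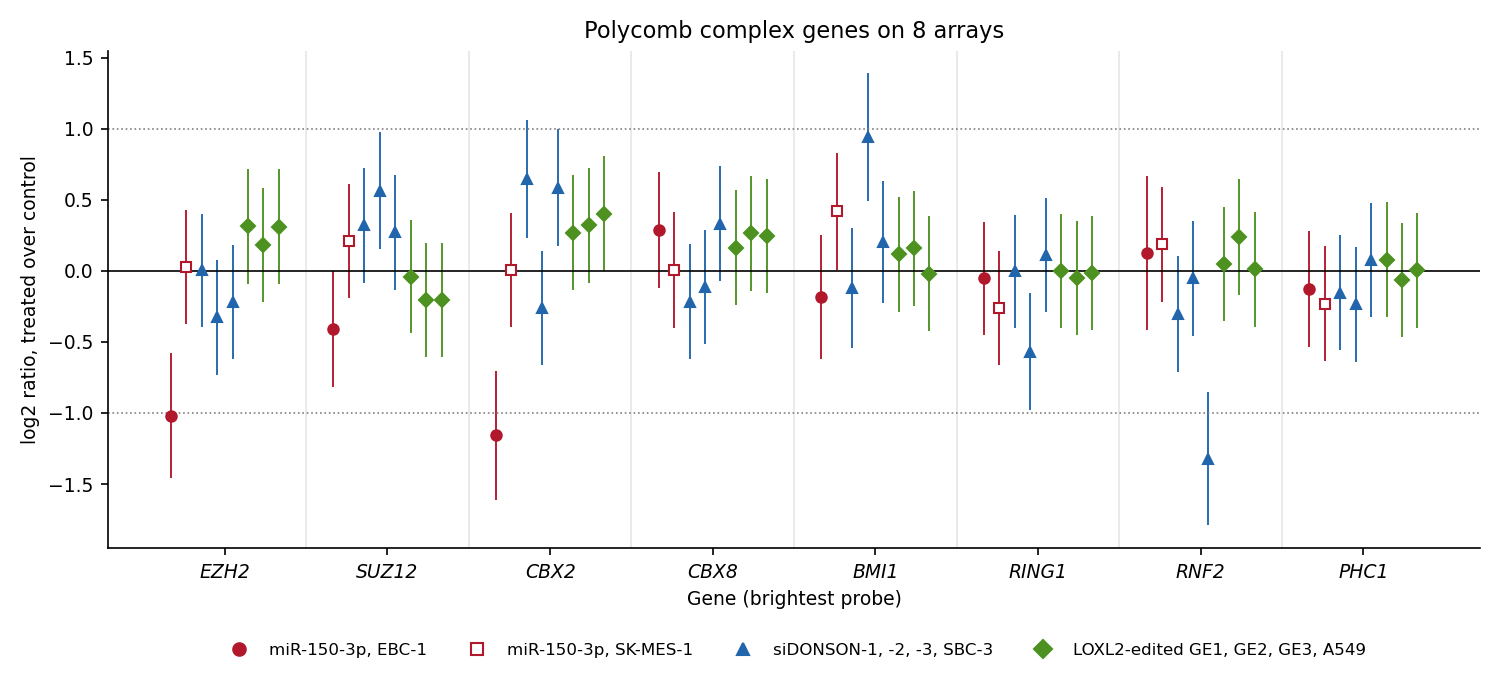
Log2 ratio of treated over control RNA (vertical axis) for the brightest probe of each of the 8 genes (horizontal axis) on the 8 arrays, with colour and symbol for the group and line, in the order of the legend. Bars are the 95% limits of the software error of a single array, which leave out the spread between cultures, and dotted lines mark 1 and -1. *EZH2* and *CBX2* in EBC-1 and *RNF2* with siDONSON-3 lie below -1.

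On the EBC-1 array, *EZH2* was at -1.02, which is 49.4% of its control level. On the SK-MES-1 array it was at 0.026, or 102% of control. The software error of these values, which leaves out the spread between cultures, was 0.22 and 0.20. *EZH2* was 0.0025, -0.33 and -0.22 with siDONSON-1, -2 and -3, and 0.31, 0.19 and 0.31 on the A549-GE1, -GE2 and -GE3 arrays. None of these 6 values lay outside the 95% limits of its software error. The siDONSON and LOXL2-edited arrays, which differ in cell line and treatment, did not overlap for *EZH2*. That difference was not tested, and the share of all genes without overlap was not counted. The EBC-1 minus SK-MES-1 difference was -1.04 (SE 0.22, 95% interval -1.57 to -0.52), with an adjusted p of 0.0929 in limma, and was not called. With normexp and loess in place of the scanner software's processing, the difference was -0.82 and the adjusted p 0.0482, and over all alternatives the adjusted p ran from 0.0482 to 0.217. As a mean of both lines *EZH2* was at -0.50 (SE 0.22, adjusted p = 0.191, limma). The mean rests on the EBC-1 array: leaving that array out gave 0.026, and leaving out SK-MES-1 gave -1.02 with an adjusted p of 0.0121, from the single EBC-1 array with the spread of the SBC-3 and A549 arrays.

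*SUZ12*, the PRC2 subunit that holds EZH2 in an active form, was printed as 10 spots per array. *SUZ12* has a pseudogene copy, and whether the probe also binds its transcripts was not analysed here. It was -0.41 in EBC-1, against 0.21 in SK-MES-1. In SBC-3 it was 0.32, 0.57 and 0.27 with siDONSON-1, -2 and -3, and on the LOXL2-edited arrays it was -0.040, -0.20 and -0.20. All 3 siDONSON arrays were thus above 0 and all 3 LOXL2-edited arrays below 0, a difference that was not tested. The share of all genes that part in this way was not counted. The SD over the 10 spots was 0.025 to 0.077, below the software error of about 0.20 that was used for its limits. In EBC-1 and with siDONSON-2, *SUZ12* lay outside these limits. The siDONSON mean was 0.39 (SE 0.13, adjusted p = 0.118, limma, higher on 3 of 3 arrays). Under normexp and loess the mean was 0.40 and passed, with an adjusted p of 0.0316. The EBC-1 minus SK-MES-1 difference was -0.62 (SE 0.22, adjusted p = 0.249, limma).

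*RING1*, a ubiquitin ligase of PRC1, was -0.054 in EBC-1, against -0.26 in SK-MES-1. On the siDONSON arrays it was -0.0044, -0.57 and 0.11, and on the LOXL2-edited arrays it was -0.0011, -0.049 and -0.016. Only the siDONSON-2 value lay outside its error limits, and the siDONSON mean was -0.15 (SE 0.14, adjusted p = 0.509, limma).

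*RNF2*, the other ubiquitin ligase of PRC1, was read by 2 probes of the same transcript. The brightest was 0.13 in EBC-1, 0.19 in SK-MES-1, -0.30, -0.054 and -1.32 with siDONSON-1, -2 and -3, and 0.048, 0.24 and 0.012 on the LOXL2-edited arrays. The siDONSON-3 array stood alone, at 40.0% of control. The other probe also had its lowest value there, at -0.55, and lay between -0.20 and 0.083 on the other 7 arrays. On siDONSON-3 the probes differed by -0.77, more than the 95% limit of their joint software error (0.63). The siDONSON mean of the brightest probe was -0.56 (SE 0.22, adjusted p = 0.153, limma), lower on 3 of 3 arrays. Without siDONSON-3 it was -0.18.

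*BMI1*, the PCGF subunit that activates the ligases, also had 2 probes of the same transcript. The brighter was -0.18 in EBC-1, 0.42 in SK-MES-1, -0.12, 0.94 and 0.21 on the siDONSON arrays, and 0.12, 0.16 and -0.020 on the LOXL2-edited arrays. The dimmer was -0.98 in EBC-1, -0.13 in SK-MES-1, -0.34, 0.16 and -0.44 on the siDONSON arrays, and -0.082, -0.15 and -0.24 on the LOXL2-edited arrays. The brighter probe was higher on 8 of 8 arrays, by 0.20 to 0.80. The probes disagreed beyond their software error on 3 arrays (EBC-1, siDONSON-2 and siDONSON-3) and had opposite signs on SK-MES-1, siDONSON-3, A549-GE1 and A549-GE2. In EBC-1, the dimmer probe was outside its error limits and the brighter was not. The mean over the *miR-150-3p* arrays was 0.12 (SE 0.24, adjusted p = 0.791, limma) for the brighter and -0.56 (SE 0.21, adjusted p = 0.150) for the dimmer probe.

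*CBX2*, a CBX subunit that reads the methyl mark, was at -1.16 in EBC-1, or 44.8% of control, and at 0.0049 in SK-MES-1. With siDONSON-1, -2 and -3 it was 0.65, -0.26 and 0.58, and on the LOXL2-edited arrays it was 0.27, 0.32 and 0.40. The EBC-1 value was the lowest of the 8, and siDONSON-2 was opposite in sign to the other siRNAs. Values in EBC-1 and with siDONSON-1 and -3 lay outside the error limits. The EBC-1 minus SK-MES-1 difference was -1.16 (SE 0.44, 95% interval -2.21 to -0.11, adjusted p = 0.272, limma). Over all alternatives the difference ran from -1.21 to -0.38, and it passed only without the siDONSON-2 array. As a mean of both lines *CBX2* was at -0.58 (SE 0.29, adjusted p = 0.244, limma), and at 0.0049 without EBC-1. When the probes of the gene were averaged, the mean of both lines was -0.11 (adjusted p = 0.675, limma). A second *CBX2* probe, of another transcript record, was not well above background in green on 6 of 8 arrays, both LUSQ arrays included. Its red signal was well above background on every array, so it was counted. It was 0.56 in EBC-1, opposite in sign to the brightest probe, and 0.16 in SK-MES-1. Both values lay within its error limits (0.78 and 0.89). Its EBC-1 minus SK-MES-1 difference was 0.40.

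*CBX8*, another reader of the mark, was 0.29 in EBC-1, against 0.0071 in SK-MES-1. It was -0.22, -0.12 and 0.33 on the siDONSON arrays and 0.16, 0.27 and 0.24 on the LOXL2-edited arrays. No value of *CBX8* lay outside its error limits. In EBC-1 it was the highest of the 8 Polycomb genes, opposite in sign to *CBX2*.

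The calls of the LOXL2-edited arrays depended on the source of the spread for *EZH2*, *CBX2* and *CBX8*, which were not called in the joint fit. Their means were 0.27 (SE 0.18, adjusted p = 0.369), 0.33 (SE 0.24, adjusted p = 0.409) and 0.22 (SE 0.13, adjusted p = 0.279) in limma. When only the 3 LOXL2-edited arrays set the spread, the adjusted p-values were 0.0418, 0.0288 and 0.0497. With that spread 8406 of 29737 probes passed, against 3619 in the joint fit.

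*PHC1*, a polyhomeotic subunit, had 4 probes, of which 2 were well above background in both channels on every array. The brightest was -0.13 in EBC-1, -0.23 in SK-MES-1, -0.15, -0.23 and 0.079 on the siDONSON arrays, and 0.079, -0.064 and 0.0026 on the LOXL2-edited arrays. The next was 0.066, -0.13, -0.16, -0.31, -0.29, -0.28, -0.25 and -0.28 on the same arrays in that order. No value of these probes lay outside its error limits. The next probe was lower on all 3 LOXL2-edited arrays, with a mean of -0.27 (SE 0.088, adjusted p = 0.0906, limma), where the brightest had a mean of 0.0059. A dim probe was not well above background in green on the LUSQ arrays and ran from -0.73 (A549-GE2) to 0.57 (siDONSON-2) on the other 6. The last was not well above background in green on any array.

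**Figure D2:**
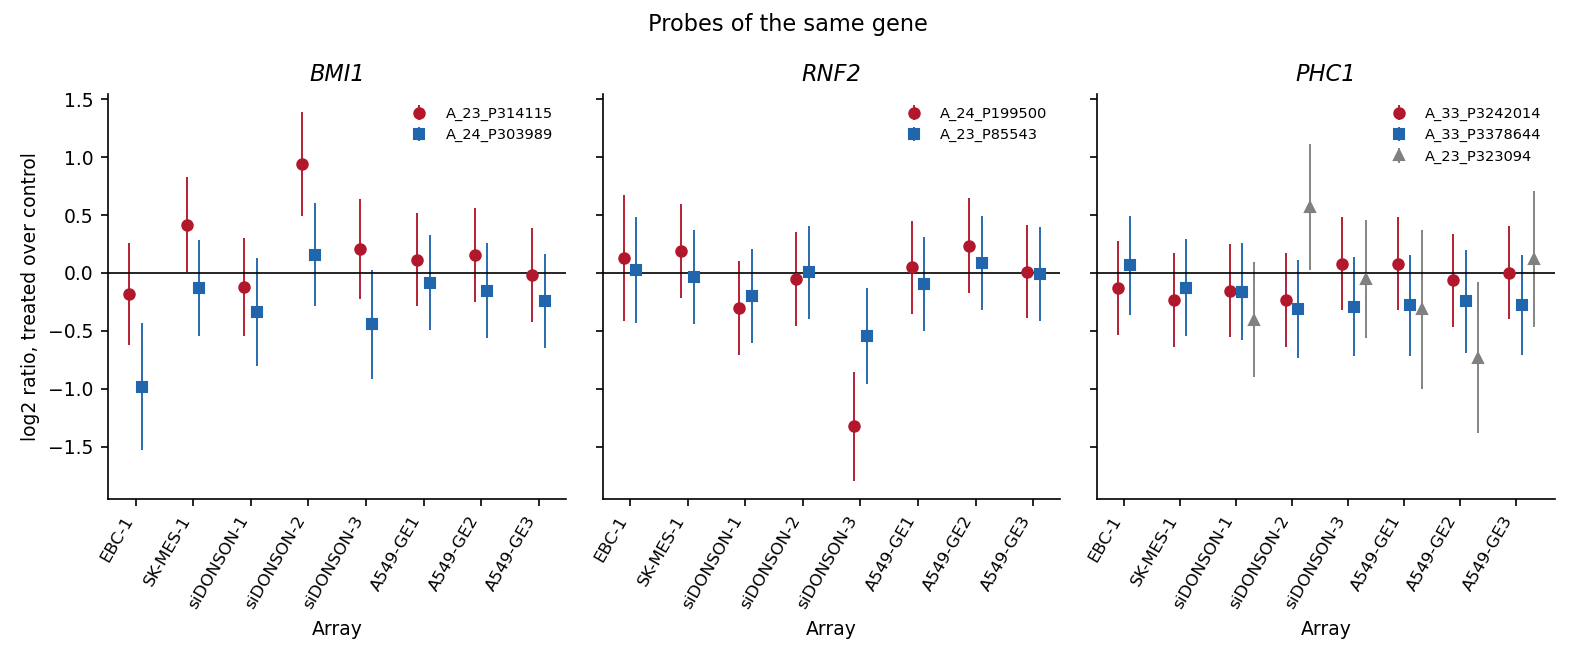
Log2 ratio of treated over control (vertical axis) on each array (horizontal axis) for the probes of *BMI1*, *RNF2* and *PHC1*, with 1 colour per probe. Bars are the 95% limits of the software error, and values of a probe that was not well above background in a channel are left out. The blue *BMI1* probe lies below the red on 8 of 8 arrays, and the *RNF2* probes part at siDONSON-3.

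Over the genes with several probes, 54 comparisons of 2 probes on an array could be made, and 7 disagreed beyond the 95% limits of the software error. The pair in *CBX2* that disagreed, in EBC-1, rests on the probe with no green signal well above background. With both probes well above background in both channels, 6 of 38 disagreed, and these were 3 for *BMI1*, 1 for *RNF2* and 2 for *PHC1* with siDONSON-2. The probe of *PHC1* that disagreed there was the dim probe with no green signal well above background on the LUSQ arrays.

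On the EBC-1 array, 2 of the 8 genes (*EZH2* and *CBX2*) were below -1, as were 6.2% of all named genes, and 3 were lower beyond the error limits, against 18.8%. In SK-MES-1 no Polycomb gene was below -1 (0 of 8, against 1.35% of all genes), and the range was -0.26 to 0.42. Only *BMI1* lay outside the limits there (1 of 8, against 16.3% of all genes), and on the EBC-1 array 3 of 8 did (against 38.9%). On the siDONSON-1, -2 and -3 arrays 1, 3 and 2 of the 8 genes lay outside the limits, against 24.8%, 24.6% and 23.1%. *RNF2* with siDONSON-3 was the single gene below -1 there (1 of 8, against 1.87%). On the LOXL2-edited arrays 0 of 8 lay outside on each, against 22.2%, 20.4% and 19.9%. For the brightest probes of *EZH2*, *SUZ12* and *CBX2* the 95% interval of the line difference, without adjustment, lay below 0, as it did for the dimmer *BMI1* probe (-0.85, interval -1.59 to -0.11, adjusted p = 0.258, limma).

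**Figure D3:**
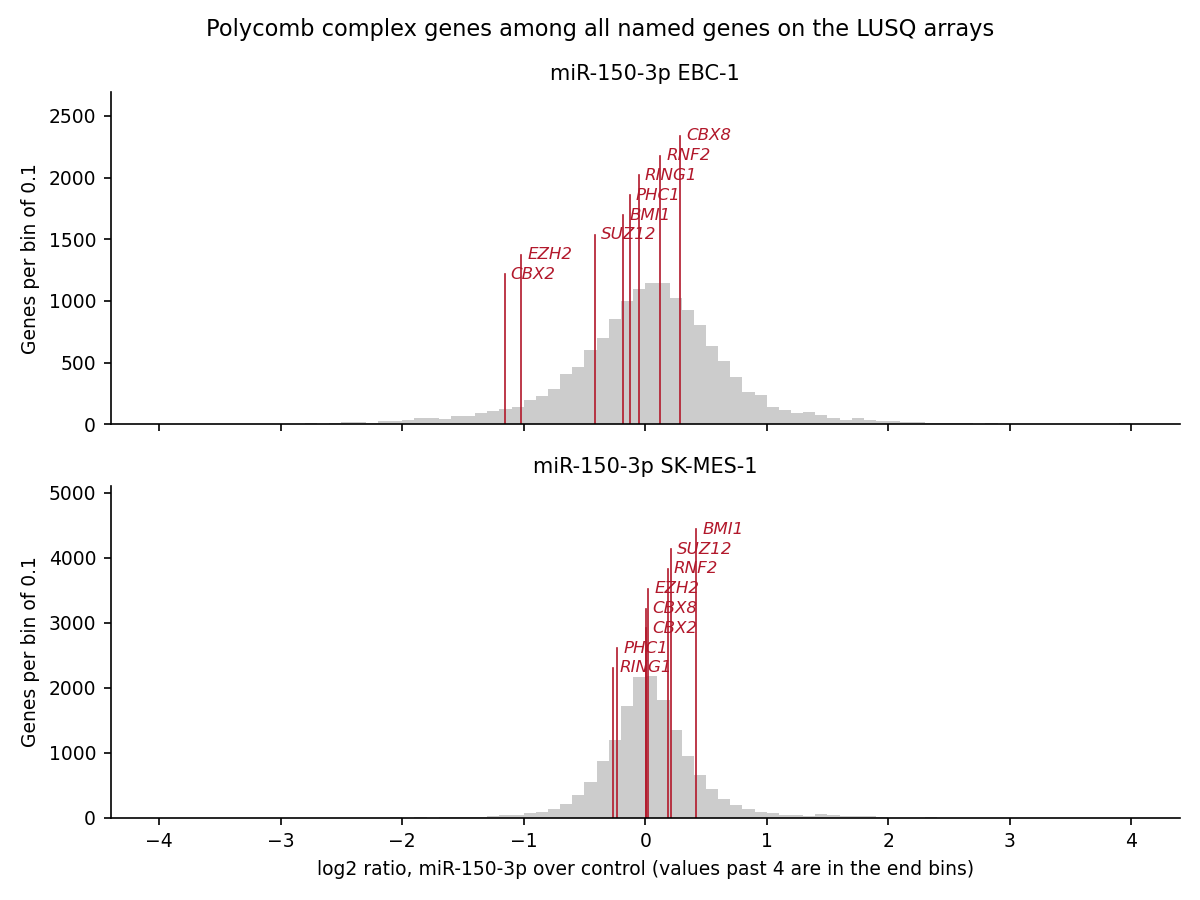
Number of named genes (vertical axis) per bin of 0.1 in the log2 ratio of *miR-150-3p* over control (horizontal axis), with EBC-1 above and SK-MES-1 below. Red lines mark the brightest probes of the 8 Polycomb genes and their heights carry no value. *EZH2* and *CBX2* lie in the lower tail in EBC-1 and in the centre in SK-MES-1.

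**Figure D4:**
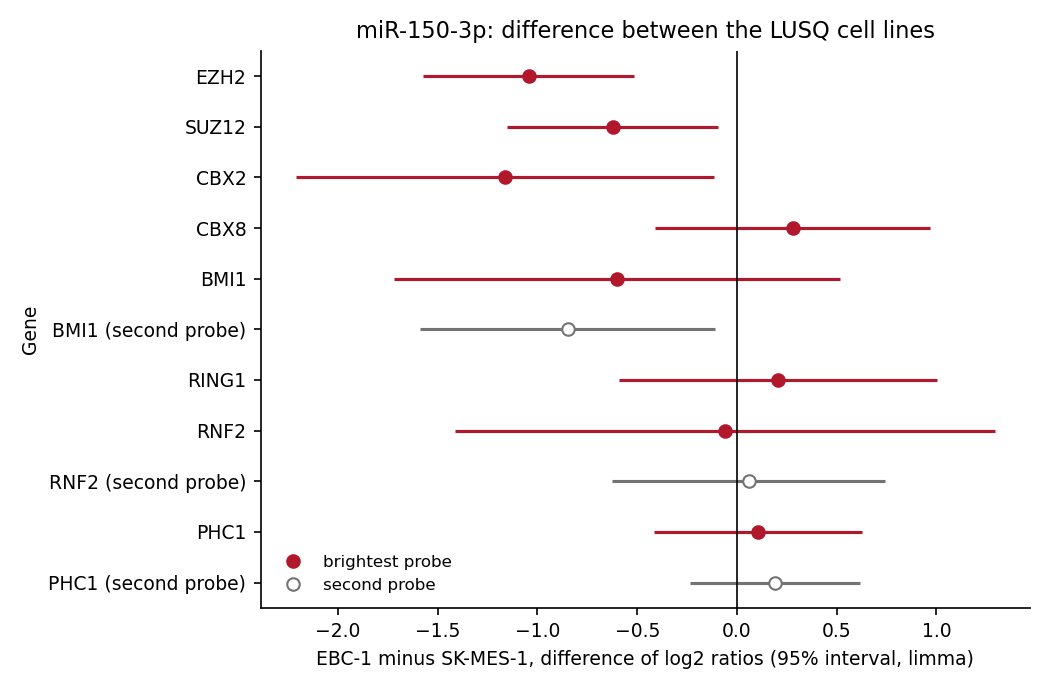
Difference of the log2 ratios of *miR-150-3p* over control, EBC-1 minus SK-MES-1 (horizontal axis), with the 95% interval of limma, for each Polycomb probe (vertical axis) that both channels of these arrays measured well above background. The spread comes from the siDONSON and LOXL2-edited arrays, and filled points are the brightest probes. *EZH2* is at -1.04 and *CBX2* at -1.16, and none passes the adjusted threshold.

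Proliferation markers were low together with *EZH2* and *CBX2* in EBC-1. All 10 markers were below -1 there, against 6.2% of all named genes, with a median of -1.96. *E2F1*, *CDK1* and *PCNA* were at -2.72, -2.51 and -2.49. In SK-MES-1, 0 of 10 were below -1, against 1.35% of all named genes. There 10 of 10 were below 0, with a median of -0.18, where the median over all genes was 0.020. The medians of the markers on the siDONSON arrays were 0.036, -0.41 and -0.23, and on the LOXL2-edited arrays -0.14, -0.022 and -0.060. Each line has 1 array, so the test of the line difference takes its spread from the SBC-3 and A549 arrays. With that spread *CDK1*, *PCNA* and *MCM6* passed in limma, lower in EBC-1, and without any 1 LOXL2-edited array none of the 3 did (adjusted p from 0.103 to 0.149). The part of proliferation in the *EZH2* and *CBX2* values was not tested.

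By Pearson's r over the 8 log2 ratios, the genes most like *EZH2* among 11182 genes were *TCEA1* (0.984), *ALG8* (0.982), *ALYREF* (0.980), *STAU2* (0.979) and *CTSV* (0.978). In all 5 the EBC-1 array held the lowest value, from -0.32 in *ALG8* to -2.34 in *CTSV*. *CBX2* had an r of 0.817 with *EZH2*, which ranked only 586 among the 11182 genes. The other 6 Polycomb genes lay between -0.10 and 0.35. *SUZ12*, its partner in PRC2, was at 0.11. The 8 points are arrays of 4 cell lines, with 3 arrays each of SBC-3 and A549, and carry no test.

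Of the other PRC2 genes, 10 of 12 were tested in the *miR-150-3p* arrays and 0 were called (against 3.72% of all genes), with 5 at an unadjusted p under 0.05 (against 29.5%). In the siDONSON arrays 1 of 11 was called (against 6.53%), with 6 at an unadjusted p under 0.05 (against 26.2%). In the LOXL2-edited arrays 0 of 11 were called (against 13.2%), with 1 at an unadjusted p under 0.05 (against 30.0%). *JARID2*, an accessory subunit that recruits PRC2, was 0.996, 0.39 and 0.61 on the siDONSON arrays (mean 0.66, SE 0.13, adjusted p = 0.0309, limma), and its mean was 0.42 under normexp and loess, where it also passed. It was 0.58 in EBC-1, against 0.35 in SK-MES-1, and 0.20, 0.076 and 0.22 on the LOXL2-edited arrays, thus above 0 in every group. Without siDONSON-1 or siDONSON-3 its adjusted p was 0.0814 and 0.104. *RBBP4*, the histone chaperone of PRC2, was -1.002 in EBC-1, against -0.13 in SK-MES-1, with a difference of -0.88 (SE 0.20, adjusted p = 0.114). It was the 1 of 10 other PRC2 genes below -1 in EBC-1, against 6.2% of all named genes. *EZH1*, the paralog of *EZH2*, was chosen after its values were seen. It was 0.66 in EBC-1, against 0.25 in SK-MES-1, 0.24, 0.33 and 0.61 on the siDONSON arrays, and 0.18, 0.0092 and 0.063 on the LOXL2-edited arrays. It was thus above 0 on 8 of 8 arrays, with means of 0.45 (SE 0.14, adjusted p = 0.0997) in the *miR-150-3p* and 0.39 (SE 0.12, adjusted p = 0.0878) in the siDONSON arrays. The share of all genes above 0 on every array was not counted. With no dye swap, gene-specific dye bias is not removed from these values.

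Of the other PRC1 genes, 18 of 20 were tested in the *miR-150-3p* and siDONSON arrays and 19 in the LOXL2-edited arrays. In the *miR-150-3p* arrays 0 were called, with 3 at an unadjusted p under 0.05, against 3.72% and 29.5% of all genes. *RYBP*, which builds the variant forms of PRC1, was 0.79, 0.50 and 0.72 on the siDONSON arrays (mean 0.67, SE 0.10, adjusted p = 0.0188, limma). *PHC3*, a relative of *PHC1*, was 0.54, 0.26 and 0.59 (mean 0.46, SE 0.11, adjusted p = 0.0475). Both lost the call without siDONSON-1 and without siDONSON-3, with adjusted p-values of 0.0644 and 0.0841 for *RYBP* and 0.137 and 0.176 for *PHC3*. Under median centring *PHC3* was 0.42 and not called (adjusted p = 0.0677). In the siDONSON arrays 2 of 18 were called, against 6.53% of all genes, with 6 at an unadjusted p under 0.05 (against 26.2%). In the LOXL2-edited arrays 6 of 19 had an unadjusted p under 0.05, against 30.0% of all genes. There 3 of 19 were called, all lower, a share near the 13.2% of all genes. *PHC2* was at -0.48 (adjusted p = 0.0307), *YAF2*, the relative of *RYBP*, at -0.45 (adjusted p = 0.0448) and *KDM2B*, which recruits variant PRC1, at -0.38 (adjusted p = 0.0470). Their ranges over the 3 arrays were -0.56 to -0.41, -0.50 to -0.42 and -0.47 to -0.28. Without any 1 of these arrays none of the 3 passed, with adjusted p-values from 0.121 to 0.240. *YAF2* was -0.23 under normexp and loess (adjusted p = 0.0655), and *PHC2* was -0.30 as a mean over its probes (adjusted p = 0.0938). *RYBP* at 0.28 and *KDM2B* at -0.16 were smaller under normexp and loess and still passed. In EBC-1, 2 of 18 were below -1, against 6.2% of all named genes. These were *PCGF6* at -1.04 and *SCML2* at -1.02.

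Among the erasers and opposing enzymes, *KDM6A*, a demethylase that removes the PRC2 mark, was called higher in the *miR-150-3p* arrays, 1 of 7 tested, against 3.72% of all genes. It was 0.79 in EBC-1, against 0.44 in SK-MES-1 (mean 0.62, SE 0.13, adjusted p = 0.0469, limma). Under normexp and loess the mean was 0.11 and the adjusted p 0.151, and without EBC-1 the adjusted p was 0.286. It was 0.0593 without a filter on dim probes and 0.105 after subtraction of the other arrays. Of the 7 tested in the *miR-150-3p* arrays, 2 had an unadjusted p under 0.05, against 29.5% of all genes. In the siDONSON arrays 0 of 8 and in the LOXL2-edited arrays 0 of 7 were called, with 2 and 3 at an unadjusted p under 0.05, against 26.2% and 30.0% of all genes. No gene of these lists was called between EBC-1 and SK-MES-1, with 3 of 10 other PRC2 genes, 3 of 18 other PRC1 genes and 0 of 7 erasers at an unadjusted p under 0.05, against 16.6% of all genes.

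Genes that Polycomb is known to silence were counted for the same arrays. Of 22 listed, 10 were tested in the *miR-150-3p* arrays and 0 were called, with 2 at an unadjusted p under 0.05 (against 29.5% of all genes) and a median of 0.085. Between the LUSQ lines 0 of 10 were called, with 2 at an unadjusted p under 0.05 (against 16.6%). In the siDONSON arrays 4 of 15 had an unadjusted p under 0.05 (against 26.2%), and 1 of 15 was called, near the 6.53% of all genes. It was *RUNX3*, a transcription factor with tumor-suppressive roles, at -1.29, -1.55 and -1.01 (mean -1.28, SE 0.12, adjusted p = 0.0112, limma). When only the siDONSON arrays set the spread, its adjusted p was 0.0968. *RUNX3* was also below 0 in SK-MES-1 (-0.46) and on the LOXL2-edited arrays (-0.48, -0.56 and -0.39, adjusted p = 0.0548), and was not counted in EBC-1. With no dye swap, gene-specific dye bias is not removed. In the LOXL2-edited arrays 6 of 15 had an unadjusted p under 0.05 (against 30.0%). There 3 of 15 were called (against 13.2%), of which 2 are described. *CDKN1C*, an inhibitor of cyclin-dependent kinases, was 2.49, 2.45 and 1.94 (mean 2.29, SE 0.35, adjusted p = 0.00957), and *WT1*, a transcription factor, had a mean of -0.76 (adjusted p = 0.0343). Without A549-GE1 or A549-GE2 the adjusted p of *CDKN1C* was 0.0632 and 0.0656, and for *WT1* it was above the threshold without any 1 of the 3 arrays. *WT1* was -0.10 under normexp and loess (adjusted p = 0.164), where *RUNX3* at -0.47 and *CDKN1C* at 1.24 were smaller and still passed. *SLIT2*, an axon guidance ligand, was -0.99 in EBC-1 and at -1.82 in SK-MES-1. It was the 1 of 16 known targets below -1 in SK-MES-1, against 1.35% of all named genes. On the siDONSON arrays it was 0.68, -0.87 and -0.26. *CCND2* in EBC-1 and *LCOR* and *KDM6B* in SK-MES-1 were past 1 with no green signal well above background.

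The green channel gave the level of each gene in control RNA of the 4 lines, as log2 signal after the 75th percentile of every array was set to the common mean. Levels of different genes come from different probes and are not compared. EBC-1 and SK-MES-1 had 1 array each, and the 3 green channels of SBC-3 or A549 may hold the same RNA. The level of *EZH2* was highest in SBC-3 (11.43 to 11.54), followed by SK-MES-1 (11.29), A549 (11.13 to 11.34) and EBC-1 (11.00). The lines spanned 1.40-fold, and the steps from SBC-3 to SK-MES-1 and from SK-MES-1 to A549 were within the widest range of 3 arrays of a line (0.21). *SUZ12* was highest in A549 (12.01) and lowest in SK-MES-1 (9.84), a span of 4.49-fold, with SBC-3 (11.07) and EBC-1 (10.58) between.

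*CBX2* and *CBX8* were highest in SBC-3, at 12.90 and 10.16, and A549 came next, at 11.95 and 9.20. Their lowest lines were EBC-1 for *CBX2* (11.34) and SK-MES-1 for *CBX8* (8.13). The brightest probe of *RNF2* spanned 6.90-fold, from 9.07 in SBC-3 to 6.29 in EBC-1, with A549 (8.28) and SK-MES-1 (8.22) not separated beyond the range of arrays. Its other probe gave 9.02 in SBC-3 and 7.03 in EBC-1, in which SK-MES-1 and A549 were at 7.97 and 7.91. *PHC1* was highest in SBC-3 as well (9.90), and A549 was lowest (8.79). EBC-1 (9.06) and SK-MES-1 (8.97) did not separate. *RING1* was highest in SK-MES-1 (10.89), followed by EBC-1 (10.51), SBC-3 (9.97) and A549 (9.29). *BMI1* was highest in A549 (8.49) and lowest in SBC-3 (7.66), which did not separate from EBC-1 (7.77). The medians over all genes were 9.49 to 9.59 on the arrays.

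**Figure D5:**
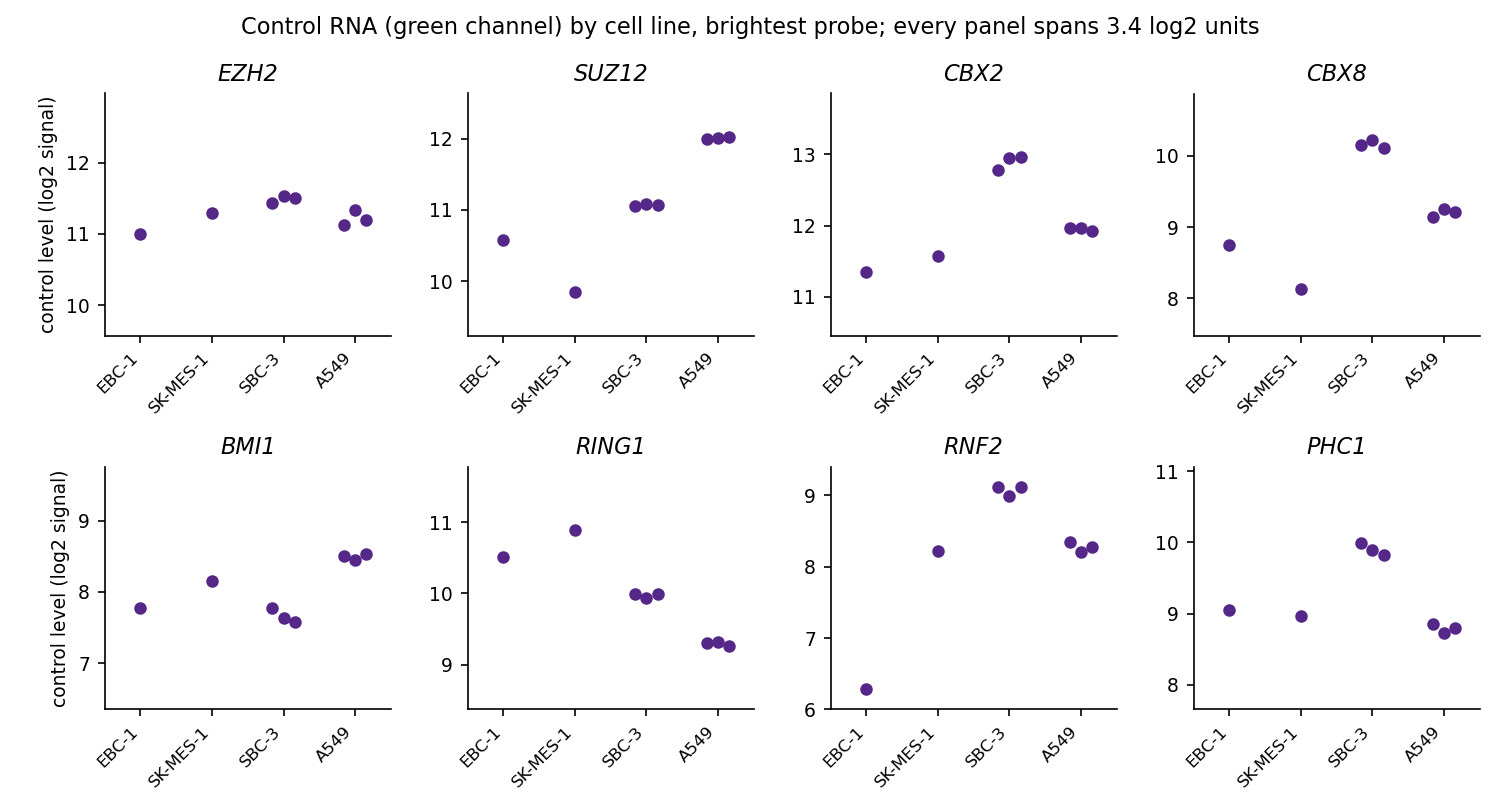
Log2 green signal of control RNA (vertical axis, 1 panel per gene, each with its own axis of the same span) by cell line (horizontal axis), brightest probe, with 1 point per array. SBC-3 is highest for *EZH2* (not separated from SK-MES-1), *CBX2*, *CBX8*, *RNF2* and *PHC1*, A549 for *SUZ12* and *BMI1*, and SK-MES-1 for *RING1*.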

How the data were processed

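RNA of 8 samples was measured on 2-colour Agilent arrays on 1 slide, with treated RNA in Cy5 and control RNA in Cy3 and no dye swap, so gene-specific dye bias is not removed. It cancels in the EBC-1 minus SK-MES-1 difference only where it is equal on both arrays, which was not tested. The authors deposited Feature Extraction files (version 12.1.1.1, array design on hg19). The intensities deposited by the authors had been background-subtracted and dye-normalized by the software, and the files hold a log10 ratio with its software error. The deposited table of the series holds the same log10 ratios. The software's p-values were not used. Groups were taken from the labels.

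The log2 ratio of red over green was computed from the processed intensities. Control spots and 81 to 133 marked spots per array were left out. Probes with several spots took their mean. An array's probe was counted when well above background in at least 1 channel (27229 to 31785 probes). Probes were named through accessions, of which 24782 of 50096 matched a RefSeq gene, and only names were taken from that table. The software error covers noise within an array, and its 95% limits are 1.96 times the error.

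In limma 3.58.1 (R 4.3.3), all 8 arrays were fitted with 3 group means (5 residual degrees of freedom), each tested against 0. A fit of 4 means (4 residual degrees of freedom) tested EBC-1 minus SK-MES-1 and assumes that these lone arrays vary like the others. Benjamini-Hochberg adjustment ran over all probes tested, at 0.05. If the controls of a group are a single RNA, its own spread is left out. As all arrays share a slide, no slide block could be fitted. The number of arrays limits the precision.

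The genes and lists were chosen with earlier results of these data known. Named were all probes of the 9 genes, the 5 genes most like *EZH2*, and genes of the Polycomb-related lists that were called or past a log2 ratio of 1 on a LUSQ array (at most 6 a list). Of the proliferation markers only some are named. In the other lists, *DLL3* in the *miR-150-3p* arrays (-0.65) and *MUC1* (0.93) and *NAPSA* (0.87) in the LOXL2-edited arrays were also called. As a mean over its probes *MUC1* was 0.18 and not called. In EBC-1 *SOX2* was at 1.32 and *DONSON* at -1.02. For 1 called gene of the known targets the values are not reported here. Lists were other PRC2 genes, other PRC1 genes, erasers and opposing enzymes, known Polycomb targets, targeted genes, proliferation markers, and squamous, adenocarcinoma and small cell markers. Alternatives were normexp (offset 50, on the median signal, as no mean signal was listed) with loess, median centring, other filters, marked spots kept, the deposited ratios, the mean over the probes of a gene, each group's own spread, subtraction of the other arrays, and leaving out each array.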

Additional observations from a re-analysis of the deposited data

Results flagged for a closer look

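For 3 proliferation markers the difference of the *miR-150-3p* ratios between EBC-1 and SK-MES-1 passed in limma, with 1 array per line and the spread taken from the SBC-3 and A549 arrays. *CDK1*, the mitotic kinase, was -2.51 in EBC-1, against -0.53 in SK-MES-1, with a difference of -1.98 (SE 0.19, adjusted p = 0.0274, limma). *PCNA*, the sliding clamp of DNA polymerase, was -2.49 and -0.40, with a difference of -2.09 (SE 0.19, adjusted p = 0.0250). *MCM6*, a subunit of the replicative helicase, was -2.09 and -0.079, with a difference of -2.01 (SE 0.29, adjusted p = 0.0499). Without any 1 LOXL2-edited array none of these passed, with adjusted p-values from 0.103 to 0.149. Without siDONSON-1 or siDONSON-3, *MCM6* had an adjusted p of 0.0630 and 0.0613. Without a filter on dim probes *MCM6* (0.0923) and *CDK1* (0.0502) did not pass. These calls thus rest on the borrowed spread and are not replicated within a line. *EZH2* and *CBX2* differed by -1.04 and -1.16 in the same comparison and were not called.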

How the results depend on the processing

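No Polycomb gene passed the threshold of limma in any comparison with the processing described. Of 368 values under alternatives, 345 kept their direction and their side of the threshold, 7 passed and 16 turned. Passing were *SUZ12* in the siDONSON arrays (0.40) and the *EZH2* line difference (-0.82) under normexp and loess, the *CBX2* line difference without siDONSON-2 (-1.16), *EZH2* in the *miR-150-3p* arrays without SK-MES-1 (-1.02), and *EZH2* (0.27), *CBX2* (0.33) and *CBX8* (0.22) in the LOXL2-edited arrays with their own spread, with adjusted p-values of 0.0418, 0.0288 and 0.0497. Turning were, without EBC-1, *EZH2* (0.026), *SUZ12* (0.21) and *CBX2* (0.0049), and without SK-MES-1, *BMI1* (-0.18), which was 0.42 without EBC-1. Without SK-MES-1 *SUZ12* was -0.41. In the *miR-150-3p* arrays *BMI1* was -0.22 and *PHC1* 0.019 as a mean over probes, and *BMI1* was -0.096 after subtraction of the other arrays. In the siDONSON arrays *CBX8* was 0.11 under normexp, 0.11 without siDONSON-1, 0.057 without siDONSON-2 and -0.17 without siDONSON-3, where *RING1* was 0.054 and -0.29 in the last 2. In the LOXL2-edited arrays *RING1* was 0.057 under normexp, *PHC1* -0.036 under median centring, -0.083 as a mean over probes and -0.031 to 0.041 without an array, and *BMI1* -0.037 as a mean over probes. The cause was not tested.

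Counts of all called probes moved more. For *miR-150-3p* the count was 864, and it was 2288 under normexp, 62 without a filter, 1596 with both channels above background, 251 after subtraction of the other arrays and 0 with the group's own spread (3579 at an unadjusted p under 0.05). Leaving out an array gave 0 (without EBC-1, 4406 at an unadjusted p under 0.05) to 4220 (without SK-MES-1). For siDONSON it was 1597, and 2434 under normexp, 10267 without a filter, 1043 as gene means and 0 with its own spread (4748 unadjusted), and 112 to 1670 without an array. For LOXL2-edited it was 3619, and 5430, 15794, 2229 and 8406 in the same order, and 521 to 741 without an array. For the line difference it was 165, and 796 under normexp, 414 with both channels and 295 as gene means. Leaving out an array gave 0 (any LOXL2-edited array, 3146 to 3402 unadjusted) to 653 (siDONSON-2), 107 without siDONSON-1 and 65 without siDONSON-3. No paired analysis was possible because each array is already a ratio against its own control, and the numbers name siRNAs or edited samples that pair with nothing. Dim probes limit *CBX2* and *PHC1*.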
